A study of Mus musculus with 14 samples.

Results

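Most genes described here encode translation initiation factors of the mouse, the proteins that bring a ribosome to an mRNA and set it on the start codon. Others encode proteins that regulate them. They were taken as the gene symbols that begin with Eif and a digit from 1 to 6, with pseudogenes and predicted genes left out. Of 61 symbols that matched, 5 were pseudogenes, which left 56 members among the 27998 genes of each culture table. Eif2c5, annotated as a long noncoding RNA, is a member by its symbol alone. In the other tables, 54 members were listed among 13338 genes of freshly isolated APLP1-/- cells, 54 among 13288 genes of freshly isolated wildtype cells, and 54 among 27144 genes of the RNA immunoprecipitations (RIP). Eif4e3 and Eif4ebp3 were not among the RIP genes.

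All 14 samples of the series derive from neural stem cells (NSC) of the subventricular zone of adult mice, a niche that makes neurons throughout life. The labels state as its questions how 3′ ends of transcripts differ between quiescent and active cells and between APLP1-/- and wildtype cells, and which mRNAs the protein CPEB4 binds. Wildtype NSC were cultured for 3 days with BMP4 (bone morphogenetic protein 4, a signal that brings cultured NSC into quiescence) or for 3 days with EGF (epidermal growth factor, which keeps them dividing). Untreated, freshly isolated cells came from mice labelled APLP1-/- and from wildtype mice, and each of the 2 pools of cells carried 3 antibody-linked hash tags (anti-MHC1 and anti-CD45) that mark single mice. All 4 of these were oligo(dT)-primed 10x Genomics libraries of single cells, 1 library per condition. The RIP libraries came from untreated neurospheres, floating cultures of NSC, with 2 libraries each of CPEB4 precipitate from cells labelled CPEB4-/- (KO CPEB4 IP), CPEB4 precipitate from wildtype cells (WT CPEB4 IP), wildtype precipitate with IgG, and wildtype input. The labels used here state no age or sex and do not describe the alleles behind the knockout names.

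The BMP4 library held 887 cells and 17313999 counts, and the EGF library 1410 cells and 33603623 counts, with medians of 17355 and 22866.5 counts per cell and 1 shared barcode. The fresh libraries were far shallower, with 1879 cells and a median of 424 counts in APLP1-/- and 2209 cells and a median of 364 counts in wildtype, and they shared 13 barcodes. RIP libraries held between 10054346 and 17466296 counts. The markers of quiescent NSC and astrocytes summed to 27438 CPM (counts scaled to a common library total) in BMP4 culture and to 6150 CPM in EGF culture, while those of active NSC and transit amplifying cells summed to 856 CPM in BMP4 culture and 5989 CPM in EGF culture. All 16 markers of each list had 10 or more counts in both cultures. Aplp1 had 54 counts in the fresh APLP1-/- library against 246 in wildtype. Cpeb4, however, was not lower in the libraries labelled knockout, at 231 and 250.3 normalised CPM in KO CPEB4 IP against 225 and 81.2 CPM in WT CPEB4 IP.

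Initiation runs in steps. The factor eIF2, charged with GTP, carries the initiator tRNA to the small ribosomal subunit, and its exchange factor eIF2B reloads it. Kinases that sense stress phosphorylate the alpha subunit of eIF2 and so slow this step for most mRNAs. The cap-binding complex eIF4F joins the cap-binding protein eIF4E, the scaffold eIF4G and the helicase eIF4A, and the 4E-BP proteins hold eIF4E back until the kinase mTORC1 phosphorylates them. The many-subunit factor eIF3 bridges the mRNA and the small subunit, eIF1 and eIF1A govern the choice of start codon, and eIF5B joins the large subunit. In neural stem cells, quiescence is known as a state of low protein synthesis and activation as one of high synthesis.

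The promoters of several members carry the letters CACGTG, the E-box that MYC and related factors are known to bind. Windows are shown for holders among the genes of the cap-binding complex and its helpers, and for Eif5a, whose levels are given below. Each window is 30 bases, read 5′ to 3′ on the strand of the gene, with the E-box in capitals. Windows come from the RefSeq promoters of GRCm38.p6, 250 bases before to 50 after each listed start, and a gene can have several. Eif4a1 encodes an eIF4A helicase (chr11:69672595-69672624, minus strand), Eif4e the cap-binding protein (chr3:138527028-138527057, plus strand) and Eif4g1 the scaffold (chr16:20672661-20672690, plus strand). Eif4h encodes a helper of the helicase (chr5:134639488-134639517, minus strand) and Eif5a the factor eIF5A, which keeps elongation and termination moving (chr11:69920791-69920820, minus strand).
Eif4a1: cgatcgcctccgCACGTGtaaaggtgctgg
Eif4e: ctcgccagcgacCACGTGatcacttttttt
Eif4g1: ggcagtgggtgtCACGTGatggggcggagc
Eif4h: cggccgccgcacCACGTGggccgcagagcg
Eif5a: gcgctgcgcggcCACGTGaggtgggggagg
The E-box starts 189 bases before the listed start in Eif4a1, 54 before it in Eif4g1 and 96 before it in Eif4h. In Eif4e it starts 228 bases before 1 of 2 listed starts, and in Eif5a 178 before 1 of 6. The Eif4e and Eif5a windows lie inside the annotated span of the gene, which begins farther upstream (at 138526191 in Eif4e and 69921958 in Eif5a). The letters read the same on both strands. Of 44 members in the promoter table, 10 held them (22.7%), against 8.09% of all 27025 genes. Among genes with 1 listed promoter, 8 of 38 members held them (21.1%), against 7.12% of all such genes. The other holders were Eif1b, Eif3a, Eif3f, Eif3k and Eif5a2. A match of letters is a description and not a bound site.

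In cells cultured with BMP4, most initiation factor genes were at lower levels than in cells cultured with EGF. The members together made up 7404 CPM in BMP4 culture and 10164 CPM in EGF culture, and 41 of the 53 members with 10 or more counts had a ratio below 1. The inhibitor gene Eif4ebp1 and the elongation factor gene Eif5a lay lowest, and the helicase gene Eif4a2 was the only member 2-fold or more higher. Each condition is 1 library, so these ratios have no replicate check and no test, and their 95% intervals cover counting error only. At 2-fold, 1 member was higher and 7 were lower in BMP4 culture, among 14502 genes of which 23.1% were higher and 15.4% lower. As shares, 1.89% of members were higher and 13.2% lower. With TMM (trimmed-mean) scaling 11 members (20.8%) were 2-fold lower, where 19.2% of all genes were higher and 19.4% lower, and without mitochondrial and ribosomal protein genes in the totals it was again 11 members, where 19.3% of all genes were higher and 19.2% lower. Under each scaling the share of members lower thus stayed close to that of all genes, and 1 member was higher. The median log2 ratio was -0.39 over members and 0.15 over all genes. Among genes with 500 or more counts, 16.9% were higher and 13.1% lower, against 1 and 7 of 48 members. Eif2c5, Eif4e1b and Eif4ebp3 had 0 counts in both cultures, which allows up to 0.173 CPM in BMP4 culture and 0.0893 CPM in EGF culture.

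**Figure D1:**
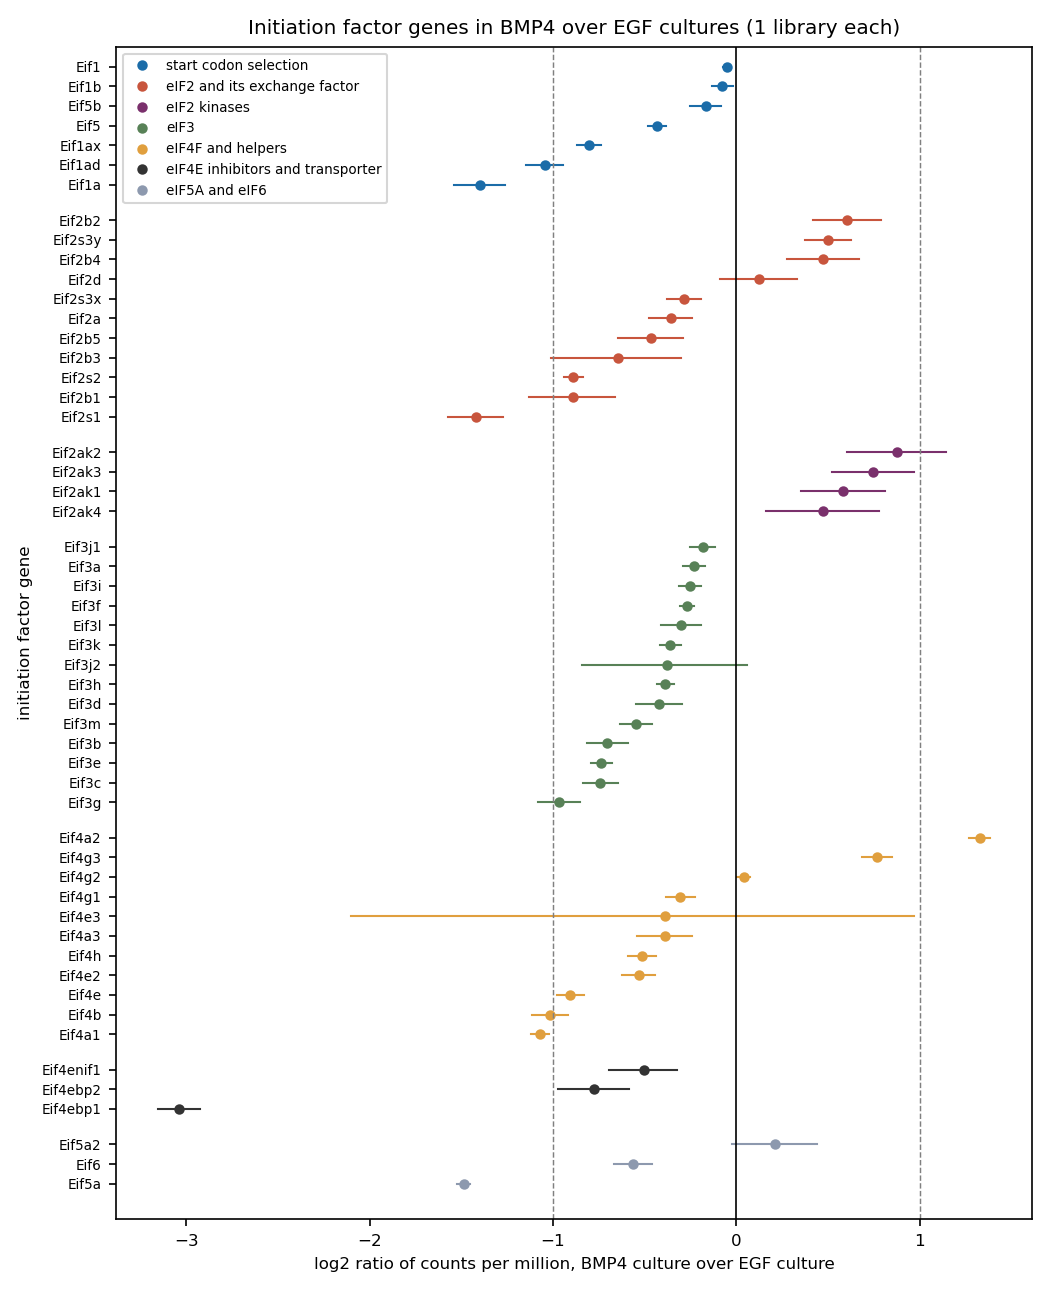
Log2 ratio of CPM in BMP4 culture over EGF culture for the 53 initiation factor genes that had at least 10 counts in the cultures, grouped by role, with bars for 95% counting intervals and dashed lines at 2-fold. Every eIF3 gene lies left of 0 and every eIF2 kinase gene right of 0, and Eif4ebp1 lies farthest left at -3.04. Eif4g2 (0.04) and Eif2d (0.12) lie so near 0 that a rescaling of all genes by -0.20 turns their sign.

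Within the cap-binding complex and its helpers, the genes moved apart. Eif4a1 had 262 CPM (95% interval 255 to 270.2) in BMP4 culture and 551 CPM (543 to 559) in EGF culture, a log2 ratio of -1.07. Eif4a2, which encodes the paralogous helicase, had 318 CPM (310 to 327) in BMP4 culture and 127 CPM (123 to 131) in EGF culture, a ratio of 2.51 (2.41 to 2.61). The counts of Eif4a1 over those of Eif4a2 therefore stood at 0.825 in BMP4 culture and 4.34 in EGF culture, a contrast between libraries and not a measure of which gene has more transcripts.

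Eif4b, whose product stimulates eIF4A, had 62.4 CPM in BMP4 culture and 126 CPM in EGF culture (log2 ratio -1.01). Eif4e had 111 CPM in BMP4 culture and 208 CPM in EGF culture (-0.91), just short of 2-fold. The scaffold genes differed among themselves. Eif4g3 had 128 CPM in BMP4 culture and 75.3 CPM in EGF culture (0.77), while Eif4g1 had 104 CPM in BMP4 culture and 129 CPM in EGF culture (-0.31). Eif4g2, which encodes an eIF4G relative that does not bind eIF4E, was near level at 619 CPM in BMP4 culture and 602 CPM in EGF culture (0.04), and its ratio turned negative with TMM scaling (-0.16), without mitochondrial and ribosomal protein genes in the totals (-0.15) and as a mean over cells (-0.04).

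The largest difference of any member was that of Eif4ebp1, which encodes 4E-BP1, the best known inhibitor of eIF4E. It had 38.6 CPM (35.7 to 41.6) in BMP4 culture and 317 CPM (311 to 323) in EGF culture, so that it was 8.22-fold higher in EGF culture. All 3 measured members of this group, the others being Eif4ebp2 and the transporter gene Eif4enif1, had ratios below 1, down to -3.04. Eif5a had 479 CPM (469 to 490.0) in BMP4 culture and 1344 CPM (1332 to 1356) in EGF culture, a log2 ratio of -1.49.

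The eIF2 kinases formed the only group in which every gene was higher in BMP4 culture, by log2 ratios of 0.47 to 0.87, all short of 2-fold. Eif2ak2, which encodes the double-stranded RNA sensor PKR, had 12.8 CPM in BMP4 culture and 6.99 CPM in EGF culture. Eif2ak3, which encodes the endoplasmic reticulum stress sensor PERK, had 17.6 CPM in BMP4 culture and 10.5 CPM in EGF culture. Their substrate showed the opposite sign. Eif2s1, the alpha subunit of eIF2, had 24.6 CPM in BMP4 culture and 65.9 CPM in EGF culture (-1.42), and Eif2s2, the beta subunit, had 216 CPM in BMP4 culture and 400 CPM in EGF culture (-0.89). Of the gamma subunit genes, Eif2s3x was lower (-0.28) and its near-identical Y-linked copy Eif2s3y higher (0.50), and reads between these copies may be split uncertainly. The exchange factor genes were divided, with Eif2b2 (0.60) and Eif2b4 (0.47) above 0 and Eif2b1, Eif2b3 and Eif2b5 below it.

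All 14 eIF3 genes were lower in BMP4 culture, none by 2-fold on this scale (Eif3g passes it with TMM scaling, at -1.16), with log2 ratios from -0.97 to -0.18 and a summed level of 2027 CPM in BMP4 culture against 2673 CPM in EGF culture. Eif3f, a subunit gene with 489 CPM in BMP4 culture and 590.2 CPM in EGF culture, changed little (-0.27), and Eif3g, an RNA-binding subunit, lay lowest at 44.6 CPM in BMP4 culture and 87.2 CPM in EGF culture. All 7 genes grouped here under start codon selection were also lower. The group was made by symbol, and it includes Eif1ad and also Eif5b, whose product joins the large subunit. Eif1 was near level at 1551 CPM in BMP4 culture and 1610 CPM in EGF culture (-0.05). Eif1a, one of a pair of near-identical eIF1A genes, had 29.2 CPM in BMP4 culture and 77.2 CPM in EGF culture (-1.40), and Eif1ad had 58.8 CPM in BMP4 culture and 121 CPM in EGF culture (-1.04).

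The cultures also differed in division, and the members' differences were therefore taken again in cells that had no transcript of the cell cycle genes Mki67, Top2a or Cdk1 after thinning each cell to 4500 counts. Such cells were 823 of 887 in BMP4 culture and 659 of 1410 in EGF culture. Between them, 1 member was 2-fold higher and 7 were 2-fold lower in BMP4 culture, with a median log2 ratio of -0.46. Of all 14502 genes, 22.8% were higher and 14.8% lower between these cells, with a median of 0.17, so the members' share lower (13.2%) was again near that of all genes. Eif4ebp1 (-2.85), Eif5a (-1.52), Eif2s1 (-1.31), Eif1a (-1.25), Eif4a1 (-1.13), Eif4b (-1.09) and Eif3g (-1.02) were lower and Eif4a2 (1.29) was higher. Within EGF culture, cells with such a transcript differed little from cells without one. Member ratios there ran from -0.75 to 0.39, with a median of 0.10 and none at 2-fold. Lack of these transcripts does not show that a cell was out of cycle, so the part of division in the differences between cultures was not tested.

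**Figure D2:**
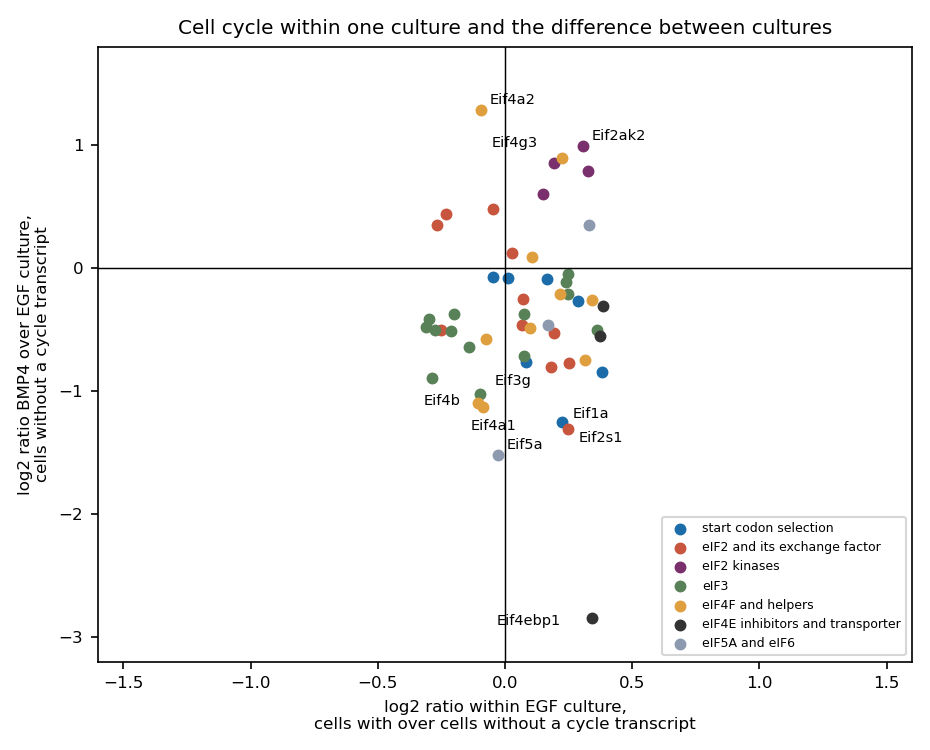
Each point is an initiation factor gene with 100 or more counts over the cultures (all measured members but Eif4e3), with the log2 ratio of cells with over cells without a cell cycle transcript within EGF culture on the x axis and the log2 ratio of BMP4 over EGF culture among cells without one on the y axis, 1 library per culture. Points spread little across, up to 0.39, and widely down, from Eif4ebp1 at -2.85 to Eif4a2 at 1.29.

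The 10 members with an E-box in the promoter had a median log2 ratio of -0.33, with 9 below 0 and 2 lower by 2-fold, and the 33 listed members without it that had 10 or more counts had a median of -0.39, with 23 below 0, 3 lower and 1 higher by 2-fold.

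Other genes of translation, from a list of elongation and termination factors, poly(A)-binding and accessory proteins, mTORC1 regulators and the response to eIF2 phosphorylation, were set beside them. Of 51 measured, 5 were 2-fold higher and 7 lower in BMP4 culture, with a median of -0.28. Of all genes, 23.1% were higher and 15.4% lower, with a median of 0.15. Eef1a2, an elongation factor of neurons and muscle, had 98 counts in BMP4 culture and 4 in EGF culture (5.41). Deptor, an inhibitor of mTOR, had 3.47 CPM in BMP4 culture and 0.893 CPM in EGF culture (1.94). Ppp1r15a (GADD34), which directs dephosphorylation of eIF2, had 45.05 CPM in BMP4 culture and 13.9 CPM in EGF culture (1.70).
The 9 genes of the response to eIF2 phosphorylation were divided, with 4 above 0 and 5 below it and a median of -0.15. Above 0 with Ppp1r15a were Impact, an inhibitor of GCN2, at 101 CPM in BMP4 culture and 36.3 CPM in EGF culture (1.48), Ddit3 (0.73) and Ppp1r15b (0.26). Atf4 (-0.35) and Nck1 (-0.15) lay below 0 by less than 2-fold, and 3 genes by more. Trib3, a target of ATF4, had 0 counts in BMP4 culture and 81 in EGF culture. Chac1, another such target, had 10 counts in BMP4 culture and 178 in EGF culture (-3.13). Asns, asparagine synthetase, had 7.28 CPM in BMP4 culture and 29.9 CPM in EGF culture (-2.03).

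Among freshly isolated cells, initiation factor transcripts took a larger share in the active than in the quiescent class. Much of that difference was Eif4a1, which had 272 CPM in quiescent and 2053 CPM in active cells with both libraries pooled. Clusters were made without the members and named from markers, and cells of a class share a library, so these values are descriptions. Clusters left unnamed held 775 APLP1-/- and 917 wildtype cells, which are in no class. The largest unnamed cluster, of 724 cells, had the astrocyte markers Gja1 and Aqp4 among its top genes. In quiescent NSC/astrocyte-like cells the members summed to 3910 CPM (3587 to 4253) in APLP1-/- and 3697 CPM (3433 to 3976) in wildtype, from 462 and 733 cells. In active NSC/transit amplifying-like cells they summed to 7085 CPM (6842 to 7334) in APLP1-/- and 6300 CPM (6012 to 6599) in wildtype, from 340 and 251 cells. Depth differed with the class, with medians of 275.5 counts per cell in APLP1-/- and 246 in wildtype quiescent cells, and 1051.5 in APLP1-/- and 952 in wildtype active cells, and its part in the difference was not tested. Neuroblast-like cells lay between at 5345 CPM in APLP1-/- and 4987 CPM in wildtype. Microglia/macrophage-like cells had 8327 CPM in APLP1-/- and 6090 CPM in wildtype, from 41 and 30 cells, which was above active cells in APLP1-/- and not in wildtype. Eif4a1 made up a large part of the microglia/macrophage-like sums too.

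With both libraries pooled, 27 members had 50 or more counts over the quiescent and active classes, of which 19 had a ratio of quiescent over active below 1, with a median log2 ratio of -0.59, 10 lower by 2-fold (37.0%) and 0 higher. Of all 3222 genes with as many counts, 24.4% were higher and 25.5% lower, with a median of -0.05. From 10 counts on, 28 of 49 members were below 0, with a median of -0.30, 15 lower by 2-fold (30.6%) and 4 higher (8.16%), where 29.7% of 8381 genes were higher and 23.6% lower and the median was 0.11. Eif4a1 had 272 CPM in quiescent and 2053 CPM in active cells (-2.91). Eif5a had 89.5 CPM in quiescent and 312 CPM in active cells (-1.78). Eif4ebp1 had 1 count in quiescent and 29 in active cells, Eif4b gave a log2 ratio of -1.87 and Eif4e one of -1.503. Eif4g3 was above 1 at 376 CPM in quiescent and 225 CPM in active cells (0.74), and Eif4g1 was level (0.08). Eif4g2, which was near level between the cultures, had 227 CPM in quiescent and 659 CPM in active cells (-1.53).

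**Figure D3:**
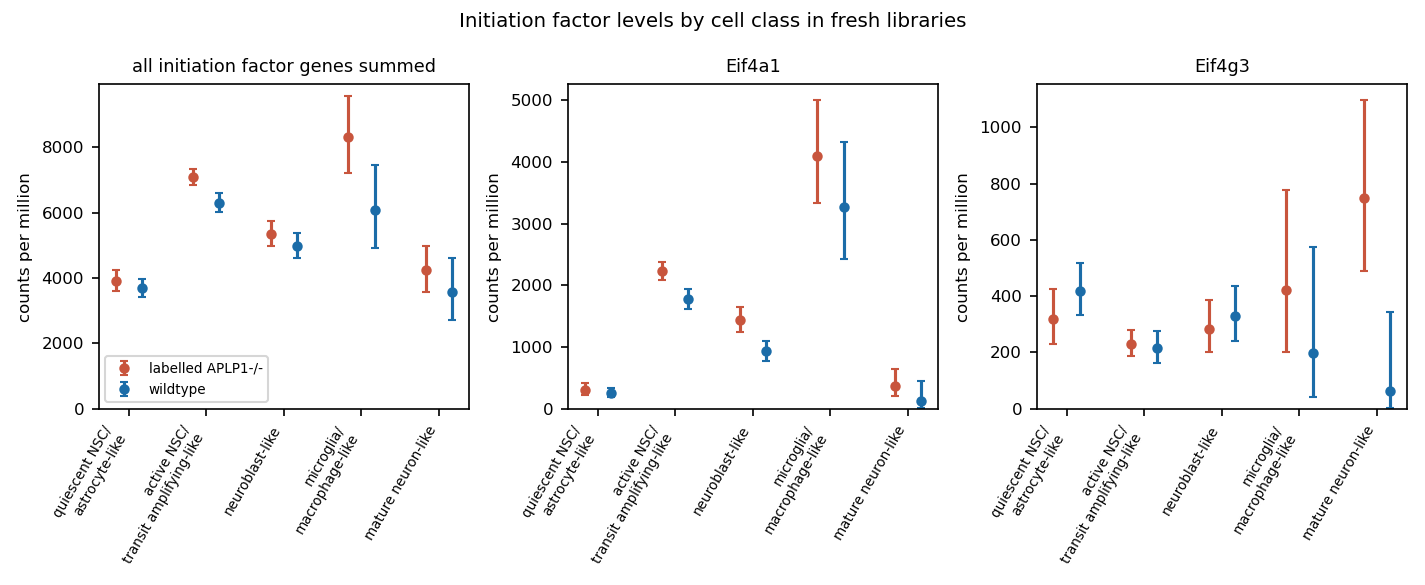
CPM with 95% counting intervals by cell class in the fresh APLP1-/- (left point) and wildtype (right point) libraries, for all initiation factor genes summed, for Eif4a1 and for Eif4g3. The summed members and Eif4a1 are lower in quiescent than in active cells in both libraries, while Eif4g3 shows no such order.

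Eif4a1 kept this pattern in each library, at 303 and 250 CPM in quiescent and 2228 and 1774 CPM in active cells of APLP1-/- and wildtype. Its highest level was in microglia/macrophage-like cells, at 4100 CPM in APLP1-/- and 3274 CPM in wildtype. Eif4g3 in mature neuron-like cells rested on 26 counts in APLP1-/- and 1 count in wildtype, from 25 and 14 cells. Several members shared counts with an overlapping gene on the opposite strand in the fresh tables. Counts of Eif3m and Ccdc73 correlated across cells at 1.00 in APLP1-/- and 0.98 in wildtype, those of Eif2ak1 and Aimp2 at 0.95 and 0.97, and those of Eif4a2 and Rfc4 at 0.89 and 0.83. Fresh values of these 3 members, and of Eif5b and Eif3j1, cannot be told apart from those of their neighbours. In the cultures no such pair passed 0.38.

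Between the genotypes, few members differed by 2-fold over whole libraries, and these had few counts. Of 51 members with 10 or more counts, 4 were higher and 1 lower in APLP1-/-, among 10311 genes of which 8.46% were higher and 8.98% lower. Eif4ebp1 had 39 counts in APLP1-/- and 8 in wildtype (ratio 4.50, 2.07 to 11.1). Eif2b2 had 32 counts in APLP1-/- and 11 in wildtype (2.69, 1.32 to 5.91). Eif4enif1 had 29 counts in APLP1-/- and 12 in wildtype (2.23, 1.10 to 4.80), Eif2ak2 had 16 and 6 (2.46, 0.915 to 7.68), and Eif3d had 13 and 27 (0.444, 0.211 to 0.891).

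The 35 members with 50 or more counts held no 2-fold difference, where 3.64% of all genes were higher and 3.62% lower. Their median log2 ratio was 0.32, against 0.01 over all such genes, with 25 above 0. Eif4a1 had 1531 CPM (1462 to 1601) in APLP1-/- and 1120 CPM (1059 to 1183) in wildtype, and Eif2s2 had 111 CPM in APLP1-/- and 55.6 CPM in wildtype (ratio 1.99). Eif1ad (ratio 1.87), Eif1a (1.57), Eif3f (1.498) and Eif1b (1.45) were also above 1. Eif1ax, the X-linked copy of Eif1a, was below 1 at 63.5 CPM in APLP1-/- and 114 CPM in wildtype (0.558). Eif4g1 (0.893), Eif4g3 (0.901) and Eif4g2 (1.09) were near 1. The active class made up 340 of 1879 cells in APLP1-/- and 251 of 2209 in wildtype, and the part of this in the ratios was not tested.

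Hash tags gave 3 mice per genotype, from 406 APLP1-/- and 463 wildtype cells. Each mouse had 39583 to 100734 counts, and the genotypes were compared over animals. Aplp1 had 0, 7 and 0 counts in the APLP1-/- mice and 4, 15 and 22 in the wildtype mice. The second APLP1-/- mouse (7 of 74313 counts) was thus near the first wildtype mouse (4 of 39583), and each mouse kept the genotype of its library. Member CPM were 5117, 4212 and 5328 in APLP1-/- mice and 5280, 3414 and 4289 in wildtype mice, so the groups overlapped. Of 1109 genes tested with edgeR, 0.0% passed an adjusted p of 0.05. None of the 10 members among them passed, with 0 at an unadjusted p below 0.05 and 0 by DESeq2. The smallest p was that of Eif4h, which had 125, 161 and 174 CPM in APLP1-/- mice and 50.5, 152 and 49.6 CPM in wildtype mice, with a log2 difference of 0.89 ± 0.74 (SE, edgeR adjusted p = 1.00). Eif3f (0.42) turned negative without the second wildtype mouse (-0.0798) and Eif4g3 (0.26) with a lower minimum of tag counts (-0.0383). All mice of a genotype were in 1 library, so an effect of the library cannot be told apart from one of genotype.

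In the RIP libraries, many initiation factor transcripts were at lower levels in WT CPEB4 IP than in input, and fewer passed the test in IgG. In WT CPEB4 IP 5 of 51 tested members were higher and 26 lower than in input (edgeR, adjusted p below 0.05), where 27.4% of 17062 genes were higher and 27.6% lower (55.0% in all). In IgG 3 were higher and 12 lower than in input, where 18.2% of genes were higher and 15.6% lower (33.8% in all). Fits with 1 library left out called fewer members in both comparisons. Such a fit leaves 1 library in a group. Its calls over all genes are not given here, so the fall is no result about the members. Both comparisons share the input libraries. The median log2 difference was -0.98 over members and -0.09 over all genes for WT CPEB4 IP, and -0.63 over members and -0.13 over all genes for IgG. Values are CPM normalised with TMM factors, which ran from 0.428 to 2.86, since 10 features took 59.8 to 63.9% of IgG counts and 0.220 to 0.319% of input counts. Without these factors the median of all genes shifted to -1.57 for WT CPEB4 IP and -2.62 for IgG, the split of all genes became 6.38% higher and 46.4% lower for WT CPEB4 IP and 2.50% higher and 65.5% lower for IgG, and 0 members were higher in either. Relative to the median of all genes, that of the members was then -0.89 for WT CPEB4 IP and -0.53 for IgG, against -0.88 and -0.50 with the factors. These bulk libraries give the share of a transcript in each precipitate or input and do not resolve cells.

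Eif5a, Eif6 and Eif1b were lowest against input. Eif5a had 19.97 and 82.8 CPM in KO CPEB4 IP, 29.8 and 38.2 CPM in WT CPEB4 IP, 75.1 and 65.8 CPM in IgG, and 257 and 337 CPM in input. Both precipitates lay below both inputs, by -3.12 ± 0.63 on the log2 scale for WT CPEB4 IP (SE, edgeR adjusted p = 0.00295) and by -2.07 ± 0.61 for IgG (adjusted p = 0.0274). Eif6, whose product keeps the large subunit from joining too early, had 3.98 and 4.67 CPM in WT CPEB4 IP, 9.77 and 9.61 CPM in IgG, and 34.6 and 34.0 CPM in input, with log2 differences from input of -2.99 and -1.83. For Eif6 too the groups did not overlap. Eif1b, a relative of Eif1, had log2 differences from input of -2.93 in WT CPEB4 IP and -2.37 in IgG.

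Of 14 eIF3 genes, 0 were higher and 8 lower in WT CPEB4 IP than in input, and 0 were higher and 5 lower in IgG. Eif3k had 8.40 and 6.81 CPM in WT CPEB4 IP, 11.2 and 12.2 CPM in IgG and 32.2 and 32.8 CPM in input. Eif3i (-2.58), Eif3g (-2.69) and Eif3l (-1.84) were among the others lower in WT CPEB4 IP. In IgG, Eif3k (-1.48), Eif3i (-1.49) and Eif3l (-1.12) were lower, and each lost its call with any of the 4 compared libraries left out (edgeR adjusted p from 0.0585 to 0.210). Eif3l also missed it with the replicate number as a block (edgeR adjusted p = 0.0516). Of 7 genes grouped under start codon selection, 5 were lower in WT CPEB4 IP and 2, Eif1b and Eif1ad (-1.68), in IgG. Among the eIF2B genes, Eif2b2 was lower in both (-2.70 in WT CPEB4 IP and -1.64 in IgG) and Eif2b1 in WT CPEB4 IP (-2.28). Eif4h was lower in both (-1.99 in WT CPEB4 IP and -1.30 in IgG). Eif4ebp1 had 9.26 and 11.2 CPM in WT CPEB4 IP, 8.84 and 7.37 CPM in IgG and 59.9 and 31.0 CPM in input, with log2 differences of -2.15 in WT CPEB4 IP (edgeR adjusted p = 0.00371) and -2.49 in IgG (edgeR adjusted p = 0.00581).

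**Figure D4:**
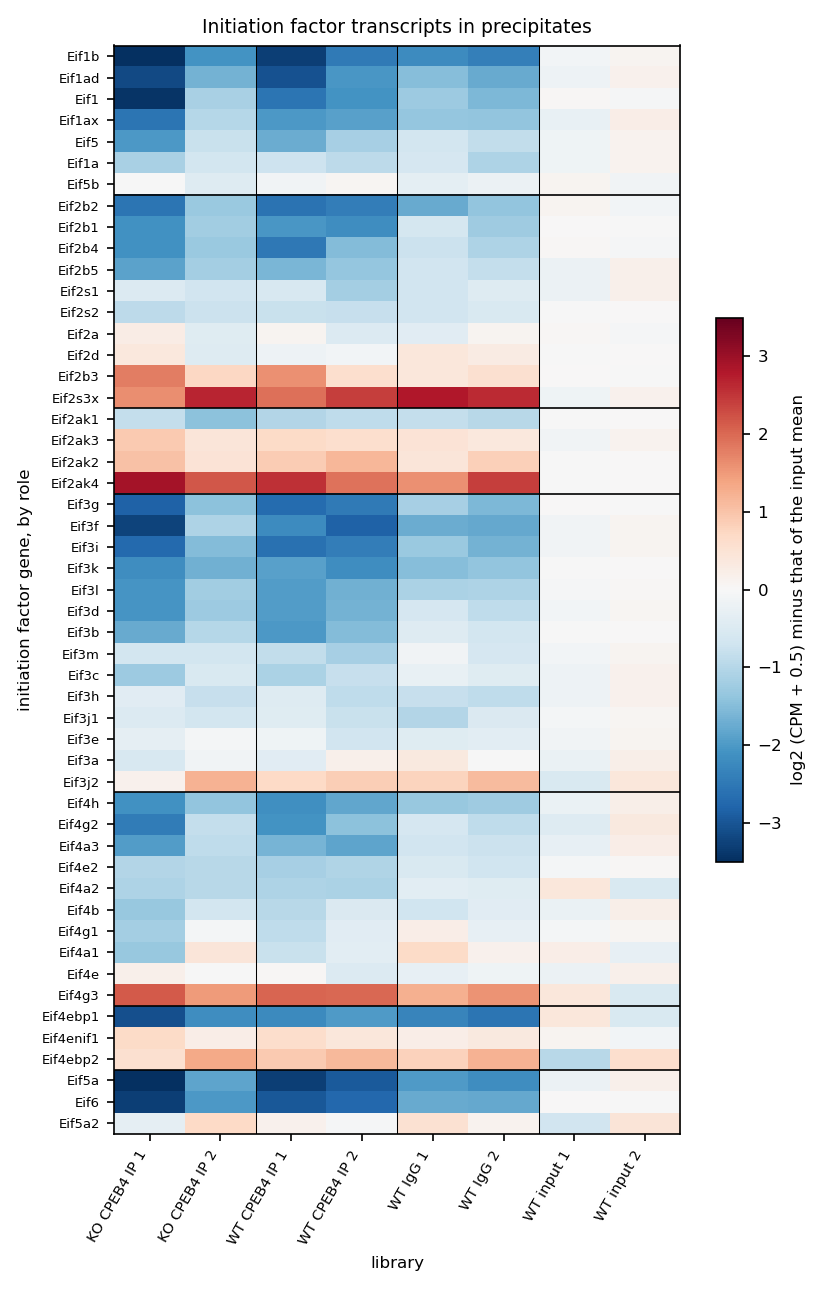
Level of each of the 51 tested initiation factor genes in the 8 RIP libraries, as log2 of normalised CPM plus 0.5 minus that of the input mean, ordered by role. Blue (lower than input) fills most of the precipitate columns, IgG included. Eif2s3x, Eif2ak4 and Eif4g3 are red in all 6, as, more faintly, are Eif2ak2, Eif2ak3, Eif2b3, Eif3j2, Eif4ebp2 and Eif4enif1. The colour of Eif2ak4 and Eif4g3 in IgG depends on the scaling, as their signs turn without TMM factors. The 2 KO CPEB4 IP columns differ from each other for many genes, as for Eif3f at 11.9 and 55.5 CPM.

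A few members ran the other way. Eif4g3 had 235 and 149.6 CPM in KO CPEB4 IP, 218 and 213 CPM in WT CPEB4 IP, 126 and 158 CPM in IgG, and 68.9 and 36.4 CPM in input. It was higher than input by 2.03 ± 0.47 in WT CPEB4 IP (adjusted p = 0.00572) and by 1.43 ± 0.47 in IgG (adjusted p = 0.0395), which turned to -1.06 in IgG without TMM factors. Without the second input library its difference in WT CPEB4 IP was 1.58 with an edgeR adjusted p of 0.0669.

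Eif2ak4, which encodes the amino acid sensor GCN2, had 38.4 and 23.0 CPM in KO CPEB4 IP, 30.3 and 19.0 CPM in WT CPEB4 IP, 15.4 and 27.4 CPM in IgG, and 4.63 and 4.75 CPM in input. It was higher than input by 2.39 in WT CPEB4 IP and by 2.19 in IgG, and without TMM factors by 0.93 in WT CPEB4 IP and -0.26 in IgG. Eif2s3x had 35.7 and 73.4 CPM in KO CPEB4 IP, 44.0 and 61.9 CPM in WT CPEB4 IP, 80.2 and 70.3 CPM in IgG, and 9.96 and 12.3 CPM in input, and was higher by 2.25 in WT CPEB4 IP and by 2.75 in IgG, and without TMM factors by 0.76 and 0.24, neither of which passed. For both genes every precipitate lay above every input on the TMM scale. Eif2s3y had 2 counts in 1 input and 0 in the other 7 libraries.

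Eif2ak2 (1.11) and Eif2b3 (1.25) were also higher in WT CPEB4 IP than in input, and both turned negative without TMM factors, at -0.38 and -0.21. Eif2ak2 lost its call with any of the 4 compared libraries left out, at adjusted p from 0.0911 to 0.171. Eif2b3 lost its call without either input or without WT CPEB4 IP 1, at adjusted p from 0.153 to 0.423. In IgG against input, Eif4g3 lost its call with any library left out (edgeR adjusted p from 0.0714 to 0.2502) and Eif2ak4 without either input or without IgG 2 (from 0.0587 to 0.0927). There, leaving out 1 library left 1 to 2 members higher and 0 to 2 lower. For WT CPEB4 IP it left 3 to 4 higher and 15 to 22 lower, with 15 without WT CPEB4 IP 1.

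Set against IgG, no member passed the test in WT CPEB4 IP. With edgeR 0.0% of the 17062 genes and 0 of 51 members passed, with 7 members at an unadjusted p below 0.05 and 0 by DESeq2. That fit shares its spread over all 8 libraries. With only the 4 compared libraries in the fit, 1.07% of genes were higher and 2.58% lower, and again 0 members passed. The members' median was -0.56, against 0.00 over all genes, and without TMM factors 0.45 against 1.02. Eif3b, an eIF3 scaffold subunit, had 19.98 and 28.0 CPM in WT CPEB4 IP and 59.5 and 51.9 CPM in IgG, a log2 difference of -1.21. Eif2b1 (-1.32) and Eif3d (-1.09), whose product can bind the cap of some mRNAs, were next by p. All 3 had an edgeR adjusted p of 0.601.

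In KO CPEB4 IP against WT CPEB4 IP no member passed the test either, with 0.0% of genes and 0 of 51 members called by edgeR, 0 members at an unadjusted p below 0.05 and 0 by DESeq2. The members' median was 0.16, against 0.06 over all genes, and -0.23 against -0.19 without TMM factors. The smallest p values were those of Eif2b2 (0.73), Eif3g (0.62) and Eif3f (0.70), each with an edgeR adjusted p of 1.00. Their KO libraries disagreed. Eif3f had 11.9 and 55.5 CPM in KO CPEB4 IP and 24.97 and 15.99 CPM in WT CPEB4 IP. Of 51 members, KO CPEB4 IP 1 lay above both WT CPEB4 IP libraries in 13 and below both in 27, and KO CPEB4 IP 2 above both in 34 and below both in 7. The 10 features largest in IgG took 31.0% of the counts of KO CPEB4 IP 1 and 64.2% of those of KO CPEB4 IP 2, against 41.5 and 47.9% in WT CPEB4 IP, and the part of this was not tested. Without KO CPEB4 IP 2 the members' median was -0.24, and Eif2b2 (-0.0753), Eif3g (-0.27) and Eif3f (-0.79) all turned negative.

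How far a member was depleted followed the length of its gene. Over the 51 members, the Spearman correlation of the log2 difference with the span of the gene in the genome was 0.73 for WT CPEB4 IP against input, 0.59 for IgG against input and 0.74 for WT CPEB4 IP against IgG. Over 15524 genes with a span these were 0.64, 0.55 and 0.58. All points of a comparison share the same libraries, so the correlations are descriptions. The 15 members under 10 kb had a median of -2.51 in WT CPEB4 IP against input, the 28 from 10 to 40 kb one of -0.85 and the 8 over 40 kb one of 0.58. For all genes these were -1.73, -0.43 and 1.48. Eif1 spans 2.15 kb and Eif1b 2.72 kb, while Eif2b3 spans 67.5 kb, Eif2ak4 86.7 kb and Eif4g3 215 kb. Long genes below 0 were Eif2ak1 (84.9 kb, -0.98), Eif3h (78.9 kb, -0.65) and Eif5b (57.6 kb, -0.02). Eif3j2, at 2.42 kb, lay off this order at 0.83, and it is a near copy of Eif3j1, so reads may be split between them.

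**Figure D5:**
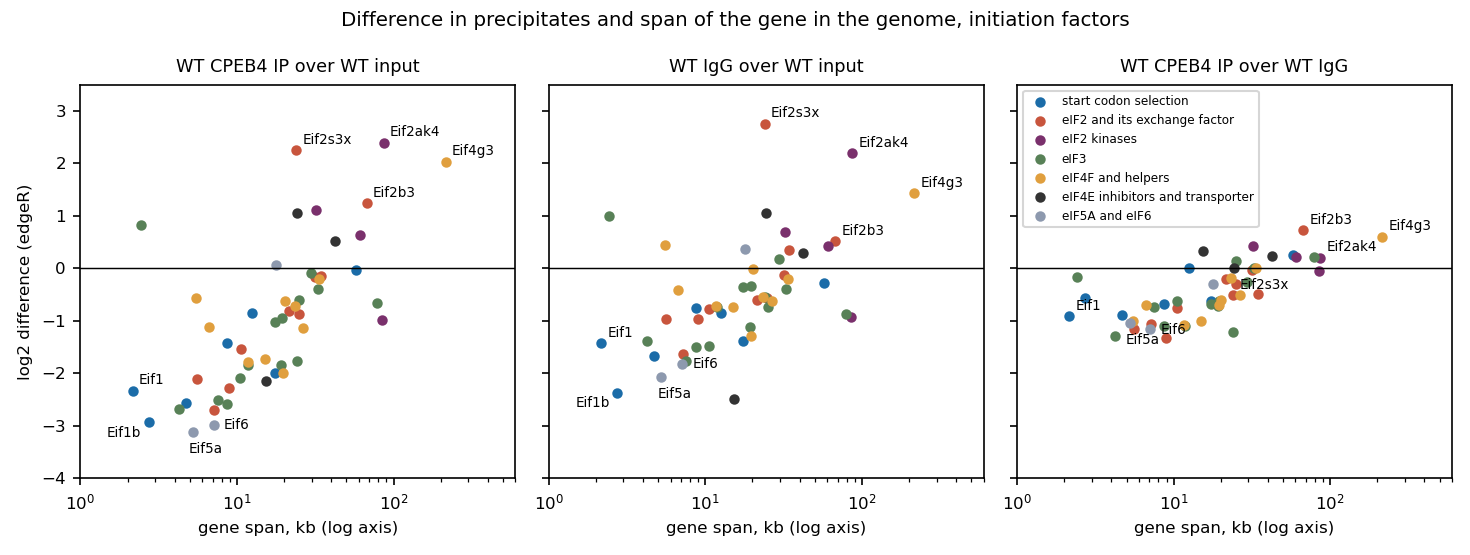
Log2 difference from edgeR against the span of the gene (log axis, kb) for 51 initiation factor genes in WT CPEB4 IP over input, IgG over input and WT CPEB4 IP over IgG. In each panel short genes such as Eif1 and Eif5a lie low and long genes such as Eif4g3 high, though Eif2ak1 and Eif3h lie below 0 against input, with Eif2s3x above the others of its span in the comparisons with input.

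Other genes of translation were lower than input in both precipitates more often than they were higher. Of 50 tested, 6 were higher and 17 lower in WT CPEB4 IP, where 27.4% of all genes were higher and 27.6% lower. In IgG 3 were higher and 12 lower, where 18.2% of all genes were higher and 15.6% lower. These values are on the TMM scale, without which none were computed for these genes. Rptor, the mTORC1 scaffold, was higher by 2.41 in WT CPEB4 IP and by 1.92 in IgG. Gigyf2, a translational repressor that binds 4EHP, was higher by 2.09 in WT CPEB4 IP and by 1.53 in IgG. Mtor, the kinase itself, was higher by 1.44 in WT CPEB4 IP and by 1.29 in IgG, and Deptor by 2.31 in WT CPEB4 IP. Eef1b2, a subunit of the eEF1 exchange factor, had differences of -3.39 in WT CPEB4 IP and -2.39 in IgG. Akt1s1, an mTORC1 inhibitor, had -2.71 in WT CPEB4 IP and -1.76 in IgG, and Eef2, the translocase of elongation, -2.74 in WT CPEB4 IP. Trib3 had -1.89 in WT CPEB4 IP and -2.45 in IgG, and Ppp1r15a -1.81 in WT CPEB4 IP and -2.13 in IgG.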

How the data were processed

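The authors deposited raw counts: of genes in cells for the cultures and fresh libraries, of hash tags in barcodes, and of genes in each RIP library. The submitters' processing notes name mm10, Cell Ranger, Bowtie2 and SAMtools, without saying which step used which tool. Versions, strand setting and cell filters were not given in the sources used here. Members and gene lists were chosen with earlier results of these data known.

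RIP counts were tested with edgeR 4.0.16 (R 4.3.3) in a quasi-likelihood fit over all 8 libraries, with genes kept by filterByExpr, TMM factors and Benjamini-Hochberg adjusted p below 0.05. DESeq2 1.42.0 was an alternative. The tests were also run on simulated data with a fixed spread not taken from these libraries, which does not measure their power here. The filter kept 51 of 54 members. RIP replicates differed beyond counting noise (chi-square per gene 22.0 to 437), but may be technical, so p-values measure only the spread between these libraries. Replicate numbers were not taken to pair the libraries, since the labels do not say that a number marks a shared batch.

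Cultures and fresh libraries were summed over cells as CPM with exact Poisson intervals and exact binomial intervals of ratios, for genes whose counts in the pair of libraries reached 10, adding 0.5 to each count in log2 ratios. Intervals and limits of a 0 (3 counts) cover counting error only, and read depth per library limits them. Fresh cells were given to a mouse with 10 or more tag counts, 75% or more of 1 tag. Clusters used scanpy 1.11.5 and leidenalg 0.10.2 (2000 variable genes without members, 30 components, 15 neighbours, resolution 1), with 3 markers needed for a name. Neither doublets nor free RNA were removed.

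Named members are those 2-fold apart in the cultures with, per role, the one of most counts and of largest ratio. In tests they are those past the threshold, up to 10 each way, or the 3 of smallest p. In fresh libraries they are those with 50 or more counts, named in part. Of the other genes, up to 3 each way are named. Members named beyond these were chosen after their values were seen. Alternatives changed scaling, filter, tool, samples, block, cells, tags or clusters.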

Additional observations from a re-analysis of the deposited data

How the results depend on the processing

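Of 702 values recomputed under an alternative, 527 stayed the same, 103 moved, 59 lost their call and 13 were counted as changes of sign. For single genes in the cultures and fresh libraries, only those 2-fold or more apart in the main setting could be counted so. Sign changes of smaller ratios, such as that of Eif4g2 in the cultures, are among those moved or the same. Where no cause is named it was not tested. Without TMM factors, WT CPEB4 IP had 0 members higher than input and IgG had 0 higher and 46 lower. The same setting gave member medians of -0.23 for KO CPEB4 IP over WT CPEB4 IP and 0.45 for WT CPEB4 IP over IgG. It turned Eif3f to -0.079 in KO CPEB4 IP over WT CPEB4 IP, Eif2ak2 to -0.38 and Eif2b3 to -0.21 in WT CPEB4 IP over input, and Eif2ak4 to -0.26 and Eif4g3 to -1.06 in IgG over input. With no filter, WT CPEB4 IP had 3 members higher than input. Leaving out 1 library gave 3 to 4 higher and 15 to 22 lower members for WT CPEB4 IP over input, and 1 to 2 higher and 0 to 2 lower for IgG over input. For KO CPEB4 IP over WT CPEB4 IP it gave medians of -0.24 to 0.35, and values of -0.0753 to 1.32 for Eif2b2, -0.27 to 1.20 for Eif3g and -0.79 to 1.42 for Eif3f. Over mice it gave -0.0798 to 1.30 for Eif3f, and 3 or more tag counts gave -0.0383 for Eif4g3. With the replicate number as a block, WT CPEB4 IP had 6 members higher and 25 lower than input and IgG 3 higher and 9 lower, Eif3l lost its call in IgG (edgeR adjusted p = 0.0516), and both other comparisons stayed at 0. Between groups, the difference of replicate 1 from replicate 2 correlated over genes at 0.10 to 0.33 among KO CPEB4 IP, WT CPEB4 IP and input, and at -0.37 to -0.18 between these and IgG. In the cultures, TMM factors shifted all genes by -0.20 and totals without mitochondrial and ribosomal protein genes by -0.19, and with each 11 members were 2-fold lower. In the fresh libraries, cells assigned to a mouse gave 14 members 2-fold higher and 4 lower in APLP1-/-, and quiescent NSC/astrocyte-like cells gave 9 higher and 8 lower. Members were kept there by their counts over the whole libraries, so these ratios can rest on few counts. The share of all genes past 2-fold was not computed for these cells, so these counts of members are no result about genotype. With the clustering resolution halved, members in wildtype quiescent cells summed to 3417 CPM. Depth limits the fresh results, where 10 members had enough counts for a test over mice.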
